A study of Rattus norvegicus with 8 samples.

Results

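The experiment compared rat hippocampal slice cultures that the labels call lesion with cultures they call control, in CA1 and CA3, the fields that hold most pyramidal neurons of the hippocampus. A slice culture is a thin explant of hippocampus kept alive in a dish, and each field was cut out of the culture before total RNA was taken. All 8 arrays of the study were used: 3 CA1 control, 3 CA3 control, 1 CA1 lesion and 1 CA3 lesion, chosen by their titles. Those titles number the controls of a field 1 to 3, and both lesion titles carry number 1. Each array held RNA pooled from 15 cultures, and all groups carry the label of 7 days and no drug, genotype or strain. How the lesion was made and when the count of days began are not in the labels, and nothing in them says that the 3 controls of a field came from separate animals or preparations. With 1 lesion array per field, the spread comes from the controls, the lesion arrays are assumed to vary like them, and the p-values cover only how these samples vary, which may be technical.

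Hippocampal neurons pack peptides such as enkephalin into dense-core vesicles and make more of their precursors when they are active, in part through the transcription factor CREB, which binds the cyclic AMP response element. Synaptic vesicles, which carry glutamate or GABA, fuse with the help of vesicle proteins such as the synaptobrevins. Microglia are the resident macrophages of the brain and clear debris with complement and lysosomal proteases, and oligodendrocytes wrap axons in myelin. Both glial populations are known to alter after injury to nervous tissue.

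In the lesion arrays of both fields, the peptide precursor gene Penk, the growth factor binding protein gene Igfbp3, the dense-core vesicle genes Scg2 and Chgb and the synaptobrevin gene Vamp1 lay below every control of their own field. The median gene of microglia, of lysosomes and of myelin stood well above controls 1 and 2 and slightly above control 3 of each field. Penk had the smallest p, at 5.21-fold lower intensity (mean difference -2.38 ± 0.34 on the log2 scale, SE). No probe set passed the test over all probe sets in both fields together: limma called 0 of 31042 (0%) at an adjusted p of 0.05, while 1837 (5.92%) had an unadjusted p under 0.05, 868 (2.8%) higher and 969 (3.12%) lower. In single fields 0 passed (0%) in CA1, where 1159 had an unadjusted p under 0.05, and 0 (0%) in CA3, where 1371 did. Values below are therefore descriptions of these arrays, set beside the spread of the controls.

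Each difference is the lesion array minus the mean of the 3 controls of its field, on log2(intensity + 16), averaged over the fields, and a fold on this scale understates the change of dim probe sets. Both lesion arrays lay above all 3 own controls for 2251 probe sets (7.25%) and below all 3 for 2114 (6.81%). Arrays that only varied like the controls would also lie beyond them for a share of probe sets, so such a position alone does not show a lesion effect. The fields went opposite ways for others: the CA1 lesion array lay below and the CA3 lesion array above all own controls for 2480, more than either count in 1 direction, and the reverse held for 991. With 1 probe set per gene, the brightest, the shares above and below all own controls in both fields were 8.86% and 6.94% of 14217 genes. These shares are the background for each count of list genes above or below all controls. Median intensity was 632 in the CA1 lesion array, level with the lowest of the CA1 controls' 632 to 814. In the CA3 lesion array it was 736, above the CA3 controls' 560 to 656. The part of these array medians in the probe sets on which the fields went opposite ways was not tested. The 3'/5' ratio of the Gapdh control probe sets, a measure of RNA integrity, was 4.65 in the CA1 lesion array, inside the CA1 controls' range of 3.71 to 5.0, and 5.23 in the CA3 lesion array, above the CA3 controls' 3.75 to 3.93. The Actb ratio was 19.8 in the CA3 lesion array, inside the CA3 controls' 15.0 to 21.4, and 17.3 in the CA1 lesion array, inside 14.5 to 22.2. The part of RNA integrity in the CA3 differences was not tested. The labels of the fields were borne out by the CA1 marker Pou3f1, at 12888, 5139 and 3972 in the CA1 controls against 4719 in the CA1 lesion array, and 236, 319.8 and 243 in the CA3 controls against 633 in the CA3 lesion array.

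Promoters of 3 neuronal genes that lay below their controls are shown because they hold the full cyclic AMP response element, TGACGTCA, a palindrome that reads the same on both strands. Letters are the 250 bases before the annotated start on the gene's own strand, from RefSeq on the GRCr8 assembly, and capitals mark the element. Scg2 lies on the minus strand (chr9:88256867-88257116), Vgf on the minus strand (chr12:25277021-25277270) and Vamp1 on the plus strand (chr4:159698644-159698893), and the element's first base stands 123, 90 and 71 bases before the start.
Scg2: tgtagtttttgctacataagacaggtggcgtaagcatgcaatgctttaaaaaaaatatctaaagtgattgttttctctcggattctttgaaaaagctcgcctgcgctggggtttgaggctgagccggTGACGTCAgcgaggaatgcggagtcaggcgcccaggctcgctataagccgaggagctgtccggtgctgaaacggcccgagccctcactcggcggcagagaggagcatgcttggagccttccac
Vgf: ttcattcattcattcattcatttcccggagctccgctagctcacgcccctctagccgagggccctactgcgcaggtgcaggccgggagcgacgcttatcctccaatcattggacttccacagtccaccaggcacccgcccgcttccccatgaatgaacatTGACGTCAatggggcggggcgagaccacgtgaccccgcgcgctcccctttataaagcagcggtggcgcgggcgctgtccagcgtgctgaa
Vamp1: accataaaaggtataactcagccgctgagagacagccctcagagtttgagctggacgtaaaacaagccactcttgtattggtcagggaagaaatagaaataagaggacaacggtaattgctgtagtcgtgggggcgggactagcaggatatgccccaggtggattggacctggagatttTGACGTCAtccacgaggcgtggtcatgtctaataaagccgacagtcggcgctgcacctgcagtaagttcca
This element was found in 612 of 33469 promoter windows of 300 bases (1.83%). That share counts windows, whereas the shares of lists count genes, each by a match in any of its windows. Of 16 peptide and secreted effector genes with a window, 4 hold it (25%), namely Scg2, Vgf, Sst and Cartpt, and of 20 synaptic vesicle genes 2 do (10%), Vamp1 and Napa. It also stands in 2 of 11 interneuron genes (18.2%), 2 of 14 immediate early genes (14.3%) and 2 of 15 pan-neuronal genes (13.3%). A match describes these letters only, and Sst and Cartpt, which also hold it, differed by 0.07 and 0.87.

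For the microglial side, 2 promoters with the letters GAGGAAGT, a match for the purine-rich element of ETS factors such as PU.1, are shown. The search took both strands, and in both genes the match lies on the opposite strand, so the capitals read as its reverse complement. Ctss, the lysosomal protease cathepsin S, lies on the plus strand (chr2:185775146-185775395) with the match 17 bases before the start, and Cd53, a leukocyte tetraspanin, on the minus strand (chr2:197087897-197088146) with the match 46 bases before it.
Ctss: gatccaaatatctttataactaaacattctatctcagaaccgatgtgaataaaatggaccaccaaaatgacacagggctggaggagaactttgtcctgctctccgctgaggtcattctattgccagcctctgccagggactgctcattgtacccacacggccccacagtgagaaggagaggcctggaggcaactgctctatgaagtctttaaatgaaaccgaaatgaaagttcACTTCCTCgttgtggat
Cd53: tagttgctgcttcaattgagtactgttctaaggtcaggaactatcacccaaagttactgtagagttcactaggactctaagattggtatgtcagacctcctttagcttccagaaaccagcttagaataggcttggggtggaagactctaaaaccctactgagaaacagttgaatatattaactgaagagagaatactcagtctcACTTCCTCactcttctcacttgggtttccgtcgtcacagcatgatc
In all, 810 of 33469 windows hold these letters (2.42%), and 3 of 19 microglial genes with a window do (15.8%), Ctss, Cd53 and Fcgr3a. Here too the first share counts windows and the second counts genes.

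Penk encodes proenkephalin, the precursor of the enkephalin opioid peptides. Its intensity was 5519.7, 5890.4 and 4839 in CA1 controls 1 to 3 and 1179.8 in the CA1 lesion array. In CA3 it was 17435, 8551 and 4398 in controls 1 to 3 and 1434 in the lesion array. Both lesion arrays lay below all 6 controls, and the CA3 controls spread more widely among themselves than the CA1 controls. The lesion arrays differed from single controls by -2.21, -2.30 and -2.02 against CA1 controls 1 to 3 and -3.59, -2.56 and -1.61 against CA3 controls 1 to 3, so the smallest of the 6 gaps was the one to CA3 control 3. The adjusted p was 0.0852 in limma. It passed when some single controls were left out: CA3 control 1 (-2.13, adjusted p = 0.0113), CA1 control 3 (-2.43, adjusted p = 0.0451) or CA3 control 3 (-2.60, adjusted p = 4.78e-04). It did not pass without CA1 control 1, CA1 control 2 or CA3 control 2 (adjusted p = 0.139, 0.190 and 0.315). Without control 1 of both fields it was -2.12 (adjusted p = 0.0472), and without control 3 of both -2.67 (adjusted p = 7.52e-06). It passed under 6 of 20 alternatives in all, whose adjusted p ran from 1.05e-07 to 0.989. Leaving out CA3 control 3 also made Penk the single call of the CA3 comparison, at -3.08 (adjusted p = 0.0489).

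The opioid peptide and receptor list had 11 measured genes, Penk among them, and its median difference was 0.01, close to the 0.03 of all genes. Mme, the peptidase neprilysin that cleaves enkephalins, was at 545, 1457 and 407 in the CA1 controls against 249.8 in the CA1 lesion array, and 681, 473 and 238 in the CA3 controls against 31.7 in the CA3 lesion array. Below all controls in both fields, Mme differed by -2.31 ± 0.83 (adjusted p = 0.828). Pdyn, the precursor of the dynorphins, differed by 0.88, with 1.96 in CA1 and -0.20 in CA3. The kappa opioid receptor gene Oprk1 was dim and lay above all controls on its brightest probe set (2.41 ± 1.02, adjusted p = 0.828), whereas its other probe sets differed by -0.03 and 0.63.

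By Pearson correlation over the 8 arrays, after the mean of each field was removed, the 5 genes most like Penk were Mgll (0.99), Zic2 (0.99), Tollip (0.98), Hivep2 (0.98) and Atp2b1 (0.98), over 8 arrays that include the 2 lesion arrays. Each of the 5 lay below all controls in both fields, a position that their choice by likeness to Penk largely fixed in advance. Mgll encodes the lipase that breaks down the endocannabinoid 2-arachidonoylglycerol, and this probe set was at 937, 1072 and 906 in the CA1 controls against 409.7 in the CA1 lesion array, and 1485, 1054 and 597 in the CA3 controls against 292 in the CA3 lesion array. Its difference was -1.45 ± 0.50, but the gene's other probe sets differed by 0.04, -0.14 and -0.15. Atp2b1, a plasma membrane calcium pump, differed by -0.94 ± 0.23, and its other probe sets, at -0.66 and -0.57, had the same sign.

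The peptides and secreted effectors that neurons make with activity had 23 measured genes with a median of -0.52, and 16 were lower, where 47% of all genes were lower and 53% higher. Both lesion arrays lay below all own controls for 7 of the 23, where 6.94% of all genes did, and above them for 1, where 8.86% did. Scg2, the dense-core vesicle protein secretogranin II, was at 48086, 35656 and 33792 in CA1 controls 1 to 3 and 19267 in the CA1 lesion array. CA3 controls 1 to 3 were at 37149, 35496 and 32291 and the CA3 lesion array at 19702. The 2 lesion arrays were almost level with each other and below every one of the 6 controls. The difference was -0.92 ± 0.17 (adjusted p = 0.221), and the gap to the nearest control was 0.71.

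Adcyap1, the precursor of the peptide PACAP, was at 1289, 288 and 1341 in CA1 controls 1 to 3 and 53.2 in the CA1 lesion array. In CA3 it was 2702, 2641 and 1219 in controls 1 to 3 and 350.2 in the lesion array. The CA1 lesion array was at the dim end of the scale and CA1 control 2 stood well below the other controls of that field. Adcyap1 differed by -3.03 ± 0.62 (adjusted p = 0.377), and a second, dimmer probe set by -0.24. For Nrn1, neuritin, an anchored protein that promotes neurite growth, intensity was 31003, 23224 and 21328 in the CA1 controls against 16177 in the CA1 lesion array, and 36140.5, 38814 and 28414 in the CA3 controls against 19004 in the CA3 lesion array. Chgb, chromogranin B, was several times brighter in CA3 than in CA1, at 17733, 16438 and 16033 in the CA1 controls against 11288 in the CA1 lesion array, and 57956, 64931 and 46830.1 in the CA3 controls against 34383 in the CA3 lesion array. In each field the lesion array was the lowest, and Nrn1 and Chgb differed by -0.73 ± 0.18 and -0.64 ± 0.16 (adjusted p = 0.730 and 0.808).

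Vgf, the precursor of several neuropeptides, lay below all controls by smaller gaps (-0.72, 0.11 to the nearest control). The inhibitory peptide gene Npy varied widely among the controls, at 42009, 28772 and 12112 in the CA1 controls against 9093 in the CA1 lesion array, and 25719.8, 13604 and 11303 in the CA3 controls against 11132 in the CA3 lesion array. Its lesion arrays were the lowest, but by 0.41 from CA1 control 3 and 0.02 from CA3 control 3. Inhba, the activin A subunit, differed by -2.15 with one control below the lesion array in CA1, and Bdnf, the neurotrophin, by -1.50 in CA1 and -0.32 in CA3. Other peptides did not share this position: the interneuron peptide Sst was at 10372, 10119.8 and 6780.5 in the CA1 controls against 10377 in the CA1 lesion array, and 5736, 5397 and 4693 in the CA3 controls against 4976 in the CA3 lesion array, and Cck, Scg3, Crh, Trh and Cartpt differed by -0.03, 0.09, 0.47, 0.77 and 0.87. The one member above all controls was Igf1, a growth factor that microglia also make, by 0.13 over control 3 in CA1 and 0.32 in CA3, and by far more over the other controls.

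**Figure D1:**
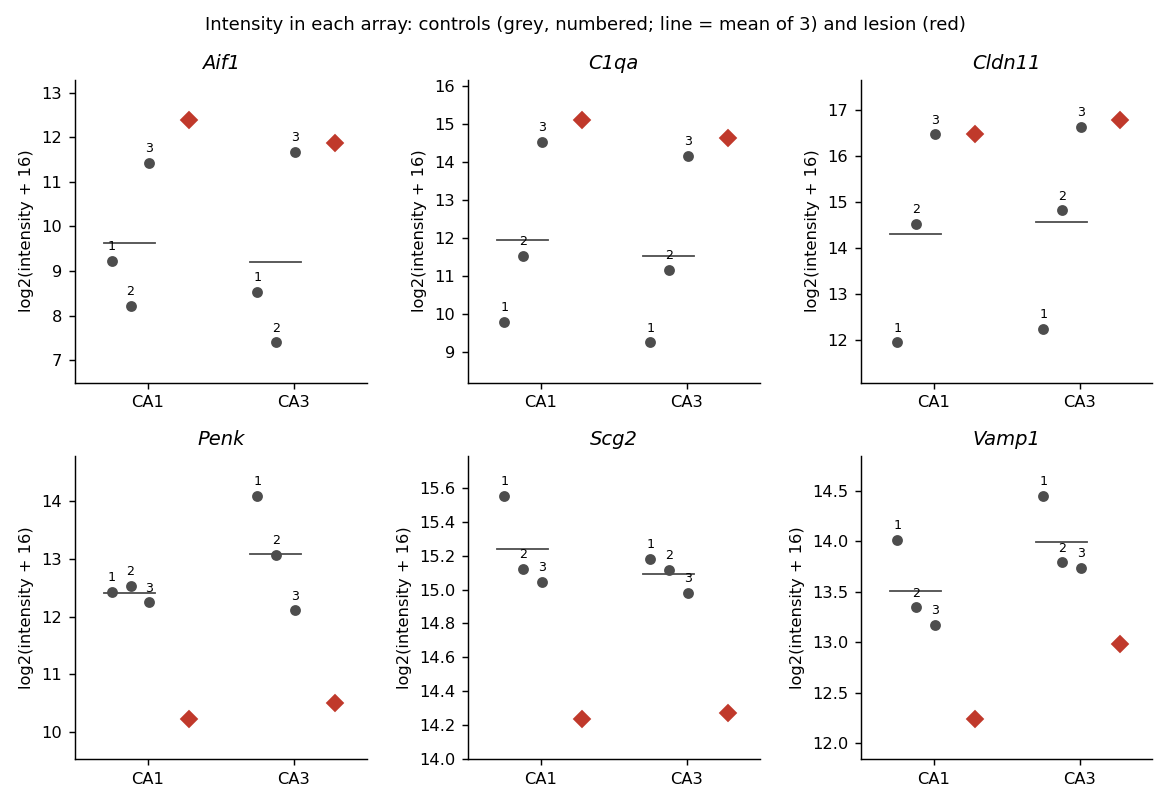
Intensity on the log2(intensity + 16) scale (y axis, a separate range per gene) in each array of CA1 and CA3 (x axis), with controls as numbered grey points, the mean of 3 controls as a line, and the lesion array as a red diamond. Aif1, C1qa and Cldn11 stand at or above a control 3 that is itself far above controls 1 and 2, while Penk, Scg2 and Vamp1 lie below all 6 controls or all 3 of their field.

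Outside the peptide list, Igfbp3 and Tagln had the smallest p after Penk among the members of the gene lists. Igfbp3, which binds insulin-like growth factors outside the cell, was at 3942, 3555 and 2173 in CA1 controls 1 to 3 and 810.5 in the CA1 lesion array. CA3 controls 1 to 3 were at 5791, 4855 and 4141 and the CA3 lesion array at 1872. Every control was more than 2-fold above the lesion array of its field, and the difference was -1.65 ± 0.26 (adjusted p = 0.108), with the other probe set at -2.03. It passed without CA1 control 3 (-1.76, adjusted p = 0.0451) and without control 3 of both fields (-1.84, adjusted p = 2.38e-04). Without control 1 of both it stood at -1.51 (adjusted p = 0.330). It passed under 3 of 20 alternatives, whose adjusted p ran from 3.04e-05 to 0.921. Tagln, the smooth muscle protein transgelin, was at 10544, 7914 and 9616 in the CA1 controls against 4835 in the CA1 lesion array, and 8062, 6241 and 7060.5 in the CA3 controls against 2467 in the CA3 lesion array. Its difference was -1.23 ± 0.19 (adjusted p = 0.108), while the endothelial and mural list had a median of 0.61, lower in CA1 and higher in CA3, and the smooth muscle genes Acta2 and Myh11 stood at 0.66 and -0.01.

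Idi1, an isomerase of the sterol pathway, lay below all controls in both fields, at 5748, 4494 and 5219 in the CA1 controls against 2635 in the CA1 lesion array, and 6809.8, 9333 and 6170.1 in the CA3 controls against 3691 in the CA3 lesion array. The difference was -0.97 ± 0.20 (adjusted p = 0.377) on its brighter probe set and -0.14 on the other, and the 16 genes of cholesterol synthesis had a median of -0.05. Sema3e, a secreted axon guidance cue, lay below all controls, with a mean difference of -0.74 ± 0.17 (adjusted p = 0.665), with a spread among the controls of only 0.12 (SD). Of the 28 guidance genes, 4 lay below all controls (14.3%, against 6.94% of all genes) and 2 above (7.14%, against 8.86%). Tenascin C, the matrix gene Tnc, and S100a10 were the 2 reactive astrocyte genes below all controls, at -0.96 ± 0.23 and -0.83 ± 0.22 (adjusted p = 0.730 and 0.828).

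Genes of synaptic vesicles and release had a median of -0.27 over 24 genes, with 18 lower and 6 below all controls (25%, against 6.94% of all genes). The list's median difference was -0.42, -0.12 and -0.19 against CA1 controls 1 to 3. Against CA3 controls 1 to 3 it was -0.55, -0.27 and -0.04, and 12 of the 24 were higher than in CA3 control 3. Vamp1, synaptobrevin 1, was at 16541, 10384 and 9215 in CA1 controls 1 to 3 and 4831 in the CA1 lesion array. CA3 controls 1 to 3 were at 22275, 14134 and 13628 and the CA3 lesion array at 8101. The lesion arrays were the lowest of each field by 0.93 and 0.75, the difference was -1.14 ± 0.23 (adjusted p = 0.377), and the other probe sets differed by -0.47 and -0.90. Cplx1, complexin 1, which clamps and times fusion, was at 29019, 27649 and 17425 in the CA1 controls against 13272 in the CA1 lesion array, and 32210.2, 29393 and 23581 in the CA3 controls against 20147 in the CA3 lesion array, a difference of -0.67 ± 0.20 on this probe set and -0.19 on another. Vamp2, Sv2a, Nsf and Syt4 were also below all controls, with differences of -0.54, -0.58, -0.35 and -0.34. The gap to the nearest control was 0.13 for Vamp2, 0.14 for Sv2a, 0.12 for Nsf and 0.01 for Syt4.

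Pan-neuronal and glutamatergic genes were lower in 22 of 23 cases, with a median of -0.34. By field, 19 were lower in CA1 (49.7% of all genes) and 22 in CA3 (44.2%). Against single controls the list's median difference was -0.51, -0.50 and 0.15 against CA1 controls 1 to 3 and -0.64, -0.54 and -0.10 against CA3 controls 1 to 3, so the list lay mainly below controls 1 and 2 and close to control 3. The summed intensity of the 23 genes was 554451 in the CA1 lesion array, within 510736 to 740182 in the CA1 controls, and 683483 in the CA3 lesion array, within 676765 to 964504 in the CA3 controls, and none was at 0. Fewer neurons and less RNA per neuron cannot be told apart in these bulk samples, and the part of the neuronal share in the peptide and synaptic differences was not tested.

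Receptors and channels had the same direction in the mean. The 12 GABA receptor genes had a median of -0.53, and Gabrb1, Gabrb2 and Gabbr2 lay below all controls, at -0.69 ± 0.20, -0.64 ± 0.20 and -0.52 ± 0.19 (adjusted p = 0.828). The GABA receptor list's median was -0.46, -0.65 and 0.10 against CA1 controls 1 to 3. Against CA3 controls 1 to 3 it was -0.62, -0.60 and -0.04, so the list lay below controls 1 and 2 and close to control 3. Voltage-gated channels had a median of -0.25, 22 of the 26 genes being lower, with the sodium channel gene Scn2a at 11150.4, 14901 and 10233 in the CA1 controls against 8679 in the CA1 lesion array, and 18278, 18027 and 11249.5 in the CA3 controls against 8492 in the CA3 lesion array. Against CA3 control 3 the channel list stood at 0.09. Genes that mark CA3 and CA2 were lower in 12 of 13 cases (median -0.50). Against control 3 their median stood at -0.47 in CA1 and at -0.01 in CA3, where 6 of the 13 were higher. In both fields 4 lay below all controls (30.8%, against 6.94% of all genes). Among those 4, the kainate receptor subunit gene Grik4 was at 1214, 1767 and 650.4 in the CA1 controls against 223 in the CA1 lesion array, and 4395, 3036 and 3106 in the CA3 controls against 2110.0 in the CA3 lesion array, and the protease gene Prss23 differed by -0.79 ± 0.18 (adjusted p = 0.665). The 8 CA1 pyramidal markers had a median of 0.19, with -0.27 in CA1 and 0.30 in CA3.

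Immediate early genes, which neurons switch on within minutes of activity, were lower in 18 of 21 cases with a median of -0.38. Below all controls lay 5 of them (23.8%, against 6.94% of all genes): Ptgs2, Egr1, Nr4a3, Jun and Klf4. Here control 3 stood on the other side, since the list's median difference was -0.20, -0.16 and -0.89 against CA1 controls 1 to 3 and -0.38, -0.00 and -1.13 against CA3 controls 1 to 3. Ptgs2, the inducible cyclooxygenase, was at 826, 964 and 2149.7 in the CA1 controls against 481 in the CA1 lesion array, and 4477, 2134 and 4194 in the CA3 controls against 637 in the CA3 lesion array. It differed by -1.84 ± 0.42 (adjusted p = 0.665), and its smallest gap, 0.76, was the one to CA1 control 1. Egr1 was at 6642, 5756 and 9291 in the CA1 controls against 4362 in the CA1 lesion array, and 4948, 3507 and 7529.9 in the CA3 controls against 2559 in the CA3 lesion array, with gaps of 0.40 and 0.45 to the nearest controls. Fosb and Egr2 showed how the controls differed, with CA3 Fosb at 82.4, 65.4 and 2763 in controls 1 to 3 and 317 in the lesion array, and CA1 Egr2 at 1873, 2394 and 8767 and 2214. For Arc, which shapes synapses, the CA1 difference was -0.66 and the CA3 difference 0.60.

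Microglia and macrophage markers were higher in 26 of 26 cases in the mean of both fields, with 26 higher in CA1 (50.3% of all genes) and 24 in CA3 (55.8%). Their median difference was 1.93, and 18 lay above all controls in both fields. Aif1, the calcium-binding protein IBA1, was at 585, 284 and 2749.9 in CA1 controls 1 to 3 and 5352 in the CA1 lesion array. In CA3 it was 356, 153 and 3241 in controls 1 to 3 and 3750.4 in the lesion array. The lesion arrays were the highest of their field, but control 3 also stood several times above the other controls. Single-control differences were 3.16, 4.16 and 0.96 against CA1 controls 1 to 3 and 3.34, 4.48 and 0.21 against CA3 controls 1 to 3, the mean difference was 2.72 ± 0.87 (adjusted p = 0.828), and a dimmer second probe set differed by 0.14 ± 0.89. C1qa, a chain of the complement component that starts the classical pathway, was at 860.5, 2909 and 23597 in CA1 controls 1 to 3 and 35223 in the CA1 lesion array. CA3 controls 1 to 3 were at 590.3, 2254 and 18254 and the CA3 lesion array at 25151. Its differences from single controls were 5.33, 3.59 and 0.58 against CA1 controls 1 to 3 and 5.38, 3.47 and 0.46 against CA3 controls 1 to 3, with a mean of 3.13 ± 1.00 (adjusted p = 0.828).

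The members with the smallest p were the transcription factor gene Irf8 (2.06 ± 0.59), Ly86 (2.70 ± 0.79), the Fc receptor chain gene Fcer1g (2.27 ± 0.70) and Cd53 (2.02 ± 0.63). Irf8 was at 939.6, 459 and 2652 in the CA1 controls against 5061 in the CA1 lesion array, and 385, 773 and 2079 in the CA3 controls against 3151 in the CA3 lesion array, and it lay 0.93 above control 3 in CA1 and 0.60 in CA3. In CA1 23 of the 26 genes had their highest control in control 3, and in CA3 24 did. Summed over the list, intensity was 393891 in the CA1 lesion array against 41160 to 344440 in the CA1 controls, and 360773 in the CA3 lesion array against 59029 to 283081 in the CA3 controls, and none of the markers was at 0. The list's median difference was 3.23, 2.46 and 0.45 against CA1 controls 1 to 3 and 2.87, 2.29 and 0.30 against CA3 controls 1 to 3. More microglia and more RNA per microglial cell cannot be told apart here. Of the markers of T cells, B cells and blood cells, 0 of 14 lay above all controls, where 8.86% of all genes did. With 14 genes, a count of 0 cannot be told from that share. The summed intensity of 4623 in the CA1 lesion array was within the CA1 controls' 3622 to 7166, while 6597 in CA3 was above the CA3 controls' 3063 to 4237.

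**Figure D2:**
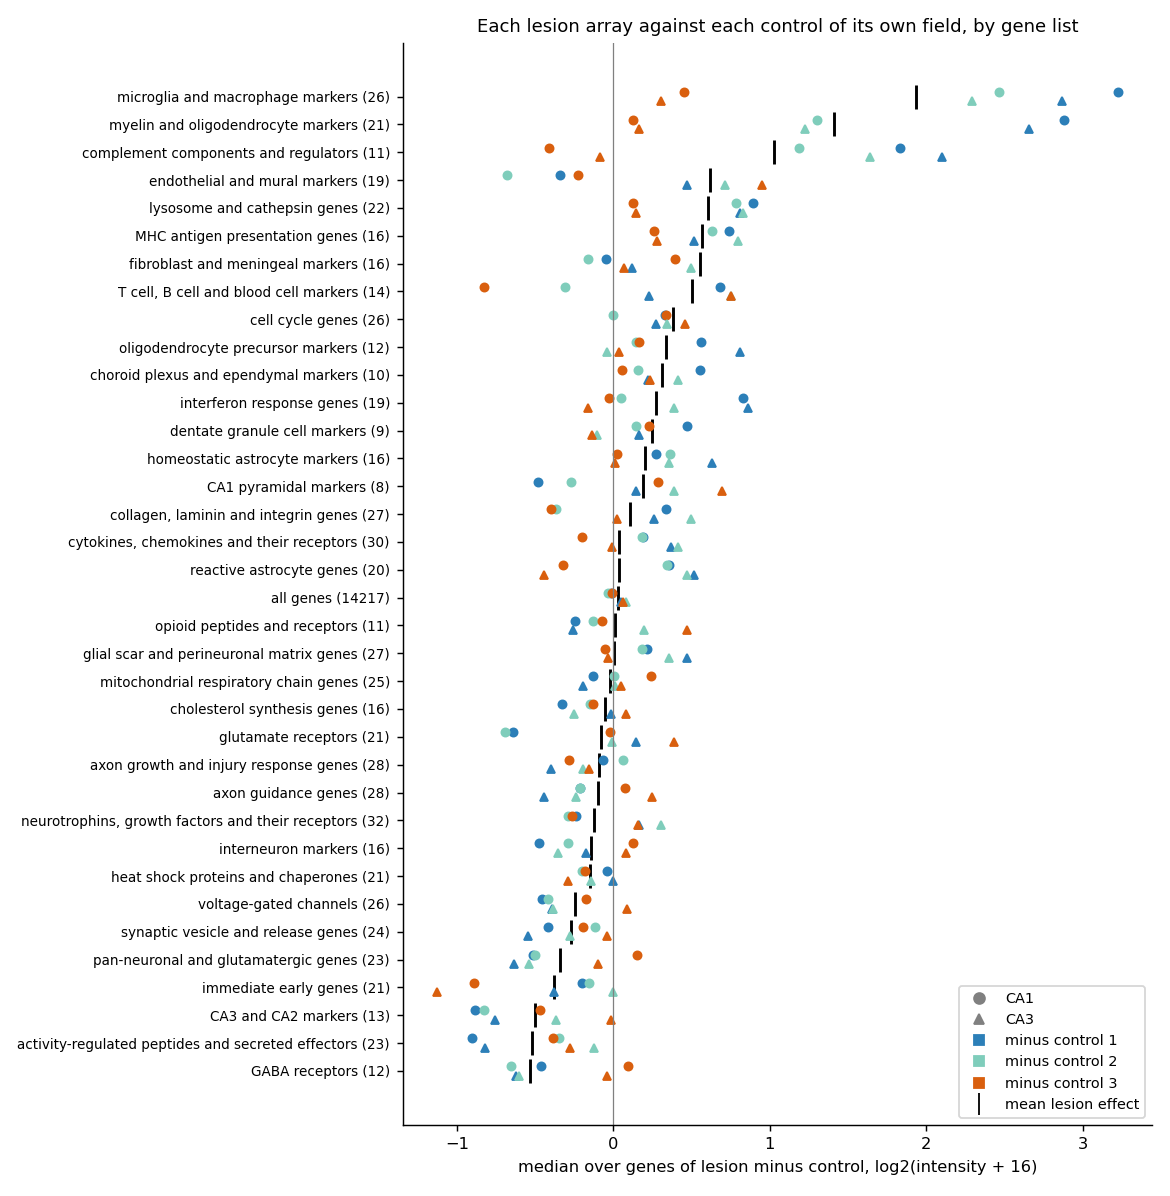
Median over the genes of each list (number of genes in brackets) of the lesion array minus each control of its field, on the log2(intensity + 16) scale (x axis), for CA1 (circles) and CA3 (triangles) and controls 1 to 3 (colours), with the median of the mean lesion effect as a black bar. For microglia markers the symbols run from 0.30 to 3.23, with both control 3 symbols lowest, while for immediate early genes both control 3 symbols lie farthest to the left, at -0.89 and -1.13.

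Lysosome and cathepsin genes, which phagocytes use to digest debris, were higher in 21 of 22 cases (median 0.60), and 12 lay above all controls. Ctsz, cathepsin Z, was at 1329, 2181 and 8445 in the CA1 controls against 9873 in the CA1 lesion array, and 1113, 1486 and 5779 in the CA3 controls against 9626 in the CA3 lesion array. Ctsz differed by 1.96 ± 0.57, Npc2, a lysosomal cholesterol carrier, by 0.74 ± 0.22, Grn, progranulin, by 0.77 ± 0.23, and Lgmn, legumain, by 0.71 ± 0.24 (adjusted p = 0.828 for all 4). The list's median stood 0.13 and 0.15 above control 3 in CA1 and CA3, and 0.78 to 0.89 above controls 1 and 2. Ctsd, the acid protease cathepsin D, was at 20838, 23490.0 and 27840.0 in the CA1 controls against 27679 in the CA1 lesion array, and 22731, 19420.1 and 22191 in the CA3 controls against 24589 in the CA3 lesion array, a difference of 0.21.

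Complement genes outside the C1q chains had a median of 1.02 over 11 genes in the mean, and of -0.41 and -0.08 against control 3 of CA1 and CA3, and 1 of them, the factor D gene Cfd, lay above all controls in both fields. C3, the central component, was at 566, 1948 and 19388 in the CA1 controls against 13492 in the CA1 lesion array, and 359, 1137 and 13902 in the CA3 controls against 13129.9 in the CA3 lesion array. Both lesion arrays lay below control 3 of their field, by 0.52 and 0.08, and many times above controls 1 and 2. Genes of antigen presentation had a median of 0.56 over 16 genes, and B2m, the light chain of class I molecules, was above all controls at 0.86 ± 0.25 (adjusted p = 0.828). Csf1, the growth factor for macrophages, was the cytokine gene with the smallest p. It was at 3760.5, 3399 and 3808 in the CA1 controls against 5974 in the CA1 lesion array, and 3303, 3114 and 2256 in the CA3 controls against 5231 in the CA3 lesion array, above every control, and in CA3 it lay farther above control 3 than above the others. Its difference was 0.79 ± 0.21 (adjusted p = 0.828), and other probe sets of Csf1 disagreed, at -0.99, 0.10 and 1.04.

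Myelin and oligodendrocyte genes were higher in 20 of 21 cases, with a median of 1.41, and 10 lay above all controls. Cldn11, the claudin of myelin tight junctions, was at 3901, 23334 and 90456 in CA1 controls 1 to 3 and 90540.5 in the CA1 lesion array. In CA3 it was 4806, 28723 and 101536 in controls 1 to 3 and 112686 in the lesion array. In CA1 the lesion array and control 3 were level, and CA1 control 1 was far dimmer than both. Mbp, myelin basic protein, was at 47660.2, 221869 and 439668 in the CA1 controls against 397647 in the CA1 lesion array, and 63522, 194016 and 283467 in the CA3 controls against 449872 in the CA3 lesion array, below control 3 in CA1 and above it in CA3. Gpr37, Tspan2, Aspa and Mal, which mature oligodendrocytes express, differed by 1.23 ± 0.37, 1.84 ± 0.69, 1.35 ± 0.51 and 1.82 ± 0.72 (adjusted p = 0.828). The list's median difference was 2.88, 1.30 and 0.13 against CA1 controls 1 to 3 and 2.66, 1.23 and 0.17 against CA3 controls 1 to 3. Summed intensity was 709671 in the CA1 lesion array against 94658 to 754251 in its controls, and 776131 in the CA3 lesion array against 117968 to 592456. The part of a differing mix of cells in the peptide and synaptic values was not tested. Precursor markers had a median of 0.34 over 12 genes, with the growth factor receptor gene Pdgfra at 0.38, and the lineage factor Olig2 differed by -0.23.

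Of 16 homeostatic astrocyte markers 4 lay above all controls (Mlc1, Gja1, Fabp7 and Glul), or 25% against 8.86% of all genes. The summed intensity of these 16 markers was above that of every control in both fields. Their median was 0.20, with 0.03 and 0.01 against control 3 of CA1 and CA3, and Slc1a2 and Aqp4 at 0.11 and 0.24. The 20 reactive genes had a median of 0.04, and single controls differed in sign. The list's median stood at 0.36, 0.34 and -0.32 against CA1 controls 1 to 3 and 0.52, 0.47 and -0.44 against CA3 controls 1 to 3. The filament gene Gfap was at 307340.0, 339172 and 478401 in the CA1 controls against 392880.0 in the CA1 lesion array, and 348459, 299188 and 275404 in the CA3 controls against 503732 in the CA3 lesion array, above all controls in CA3 and inside them in CA1. Ceruloplasmin, Cp, was above all controls at 1.66 ± 0.50 (adjusted p = 0.828), and the acute-phase gene Lcn2 was at 729.7, 247 and 22441 in the CA1 controls against 18104 in the CA1 lesion array, and 100.5, 1317 and 25708 in the CA3 controls against 19177 in the CA3 lesion array, below control 3 in each field. Serpina3n, a secreted protease inhibitor, was brightest in control 1 of each field, at 7546, 199 and 1112 in the CA1 controls against 841 in the CA1 lesion array, and 7218, 492 and 850.1 in the CA3 controls against 267 in the CA3 lesion array.

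In some lists the medians of the fields differed in sign. Glutamate receptor genes had a median of -0.58 in CA1, where 2 of 21 were higher, and 0.20 in CA3, where 15 were. Growth factor and receptor genes had -0.30 in CA1, with 5 of 32 higher, and 0.24 in CA3, with 18 higher. Endothelial and mural genes had -0.22 in CA1, with 9 of 19 higher, and 1.02 in CA3, with 17 higher. Differences between the fields in these lists were not tested as lists. Among 21 heat shock and chaperone genes 5 lay below all controls (Hsph1, Dnaja1, Dnajb1, Hsp90ab1 and Hspe1), or 23.8% against 6.94% of all genes. None lay above, and the median was -0.15. Hsph1, a co-chaperone of HSP70, was at 19719, 24245 and 20539.7 in the CA1 controls against 13726 in the CA1 lesion array, and 18649, 29502 and 22688 in the CA3 controls against 16908 in the CA3 lesion array. Cell cycle genes had a median of 0.38 over 26 genes, with 0.37 in CA1 and 0.39 in CA3, and 6 lay above all controls (23.1%, against 8.86% of all genes). Among these 6 was the proliferation marker Mki67, at 193, 102 and 133 in the CA1 controls against 884 in the CA1 lesion array, and 708, 547 and 357 in the CA3 controls against 1012 in the CA3 lesion array. Mki67 was dim in most arrays and differed by 1.74 ± 0.76 (adjusted p = 0.828). Mitochondrial respiratory genes had a median of -0.02 over 25 genes, and interferon response genes 0.27 over 19, with 0.46 in CA1 and 0.48 in CA3.

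The spread of the controls differed between the lists and between the members of each. Within a field, the controls of the microglia list had a median SD of 1.48 on the log2 scale and those of the myelin list 1.36, while it was 0.58 for the peptides and 0.45 for lysosome genes, against 0.42 for all genes. C1qa differed by 3.13 with an SD of 2.44, whereas Scg2 differed by -0.92 with an SD of 0.21, Chgb by -0.64 with 0.18 and Tagln, outside the peptide list, by -1.23 with 0.20. Other peptides had wider controls, Penk at -2.38 with an SD of 0.71 and Adcyap1 at -3.03 with 0.98.

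**Figure D3:**
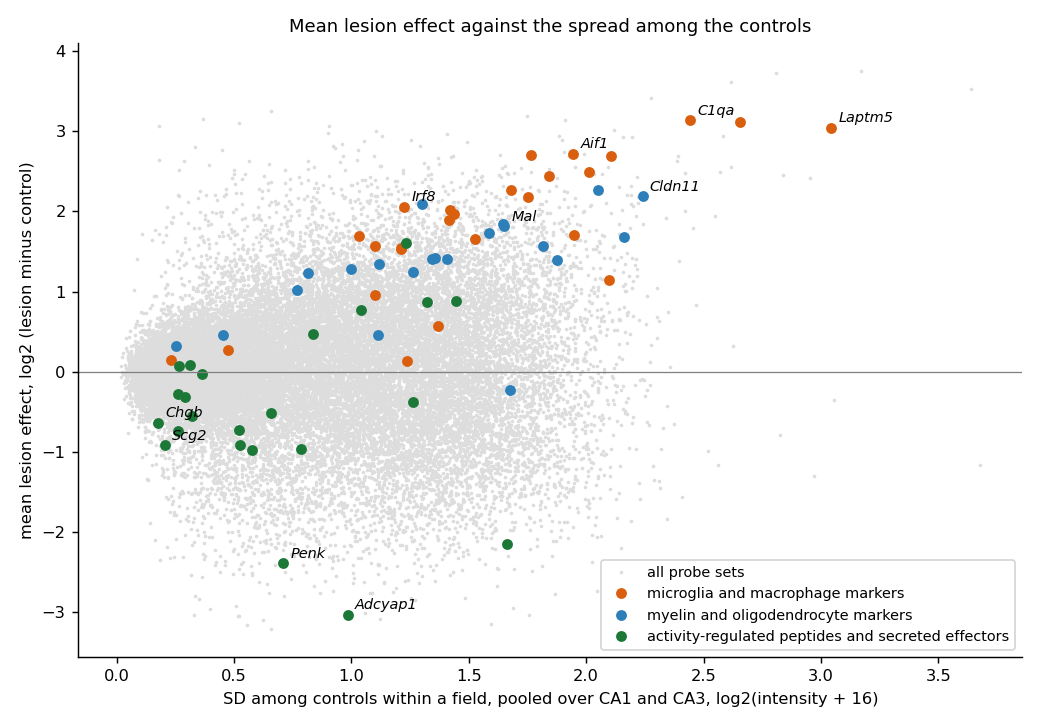
Mean lesion effect on the log2 scale (y axis) against the SD among the 3 controls of a field, pooled over CA1 and CA3 (x axis), for all 31042 probe sets (grey) and the genes of 3 lists (colours). Most microglia and myelin genes sit at an SD above 1, while Scg2, at an SD of 0.21, and Chgb, at 0.18, sit below the line at 0.

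Control 3 of both fields was left out with its closeness to the lesion arrays on the glial lists already known. What follows describes the distance from controls 1 and 2 and is no support for an effect of the lesion. When each lesion array was set against controls 1 and 2, limma called 489 probe sets, 333 higher (1.07%) and 156 lower (0.503%). Of the 333, 172 also lay above all 3 own controls in both fields, and of the 156, 94 lay below all 3. Over all probe sets the shares were 7.25% and 6.81%. The calls were chosen by their distance from controls 1 and 2, so those shares are not a like background. These counts are no support against control 3. By gene the background was 1.86% higher and 0.703% lower. Of the microglia markers 16 of 26 were called higher, of lysosome genes 14 of 22, of myelin genes 13 of 21 and of complement genes 5 of 11. Of the peptides 6 of 23 were called lower and 1 higher, of pan-neuronal genes 6 of 23 lower, and of CA3 and CA2 markers 4 of 13 lower. C1qa stood at 4.44 without control 3 and at 2.03 without control 1 of both fields, where Penk was the single call.

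The difference between the CA1 and CA3 lesion effects was tested for each probe set. limma called 0 of 31042 (0%) at an adjusted p of 0.05, with 1112 at an unadjusted p under 0.05, and each field had 1 lesion array. Across all probe sets, which are not independent, the effects in CA1 and CA3 correlated at 0.02, and at 0.15 among the brighter 60%. The CA1 lesion array lay below its controls for 8562 probe sets and above them for 6076, while the CA3 lesion array lay above for 9913 and below for 6634. The median effect was -0.05 in CA1 and 0.11 in CA3, and quantile normalization brought the CA3 median to 0.00298. Some genes stood at like distances in both fields: in CA1 and CA3 the difference was -2.18 and -2.59 for Penk, -1.01 and -0.83 for Scg2, and 3.17 and 3.10 for C1qa.

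Single fields stood apart for some genes, each with 1 lesion array and none past the threshold. Junb, an immediate early AP-1 subunit, was at 2284, 2252 and 3499.6 in the CA1 controls against 445 in the CA1 lesion array, and 2146, 1413 and 1769.9 in the CA3 controls against 1633 in the CA3 lesion array. The CA1 lesion array was far below its lowest control and the CA3 lesion array lay within its controls (difference of differences 2.42). Deaf1, a transcription factor gene, and Nomo1, a gene of an endoplasmic reticulum complex, lay below all CA1 controls and above all CA3 controls, Deaf1 at 3231, 3261 and 3399 in the CA1 controls against 1499 in the CA1 lesion array, and 2207, 2956 and 2112 in the CA3 controls against 4589.8 in the CA3 lesion array. The opposite held for Trex1, a DNA exonuclease, at 758, 1423 and 1166 in the CA1 controls against 2061 in the CA1 lesion array, and 1562, 1419 and 1113 in the CA3 controls against 53.7 in the CA3 lesion array. Trex1 had the smallest p of this comparison, with an adjusted p of 0.972. In CA3 alone, Trex1, Aagab, Tram1, Nedd4 and a probe set without a symbol were called lower under quantile normalization and with a pseudocount of 1, at adjusted p of 0.0322 and 0.0417 to 0.0477. In CA3, other probe sets differed by -0.52 and 0.23 for Aagab, by 0.04 for Tram1 and by -0.87 to 3.58 for Nedd4. Egr4, a zinc finger early gene, was at 1431, 730.2 and 2379.7 in the CA1 controls against 1179 in the CA1 lesion array, and 1080.0, 559 and 1448 in the CA3 controls against 86.3 in the CA3 lesion array, low in the CA3 lesion array only, and its other probe set differed by -0.00 in the mean.

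**Figure D4:**
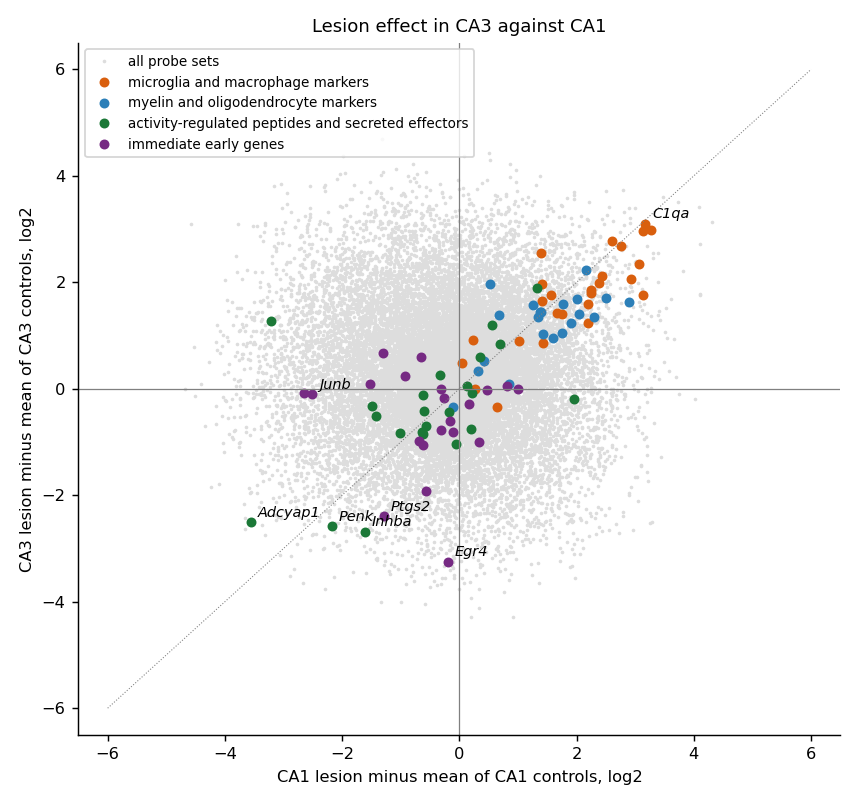
Lesion minus the mean of 3 controls on the log2 scale in CA3 (y axis) against CA1 (x axis) for all 31042 probe sets (grey) and the genes of 4 lists (colours), with the dotted line marking equal effects. Microglia and myelin genes lie along the line at upper right, Penk and Adcyap1 along it at lower left, and Junb and Egr4 lie near an axis with 1 field departing from its controls.

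Up to 12 genes per direction with the largest mean differences were taken among brighter probe sets with both lesion arrays beyond all own controls. On the high side, Ms4a6bl1, Fcgr2b, Plac8, P2ry12, Parvg, Il10ra, Cfp, C1qa, C1qc, Laptm5, Gpr84 and Lypd8l1 ranged from 3.76 to 2.94, with an adjusted p of 0.828. Fcgr2b, an inhibitory Fc receptor gene, was at 44, 74.7 and 2622 in the CA1 controls against 4806 in the CA1 lesion array, and 66.6, 230.1 and 2821 in the CA3 controls against 3374 in the CA3 lesion array. Parvg, a parvin of blood cells, was dimmer in control 3 than in control 1 of both fields, unlike the other named genes of this side, at 101, 154 and 57.2 in the CA1 controls against 764 in the CA1 lesion array, and 129, 39.9 and 59.2 in the CA3 controls against 1109.7 in the CA3 lesion array. On the low side were Narf, Adcyap1, Zic2, Homer1, Adamtsl2, Penk, Ccdc91, Slc29a2, Ash1l, Sec14l2, Amph and Mapk11, from -3.16 to -2.21. Zic2, a zinc finger transcription factor gene with a single probe set, was at 882, 807 and 907 in the CA1 controls against 134 in the CA1 lesion array, and 1558, 665 and 380.0 in the CA3 controls against 75.6 in the CA3 lesion array. Other probe sets did not repeat the size for several: Narf had -0.19, Sec14l2 0.06, Il10ra -0.73, P2ry12 0.96 and Homer1 -0.21 to -1.15. Those of Ash1l, at -0.42, 0.77 and 1.45, and of Ccdc91, at -0.83 and 0.91, differed in sign. Those of Slc29a2, Laptm5, Ms4a6bl1 and Cfp kept the sign, at -2.29, 1.85, 1.83 and 1.56.

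A stricter reading asked for a lesion array at least 2-fold beyond each control of its field. Both arrays met it for 83 probe sets on the high side (0.267%) and 115 on the low side (0.37%). Among the 12179 probe sets with a gene symbol and the higher group mean above the median intensity, 10 lay above and 10 below. Those below were Penk, Igfbp3, Adcyap1, Zic2, Narf, Txnrd1, Elfn2, Serac1, Trmt12 and Fbxo33, and those above were Il10ra, Lcp2, Dennd1c, Parvg, Tent5c, Fshb, Mogat2, Arl9, Asgr1 and Espl1. No microglia, myelin or lysosome gene of the lists was among them on its brightest probe set.

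Distances between whole arrays set the lesion arrays beside the controls' own spread. Among the brighter 60% of probe sets, 4.88%, 5.99% and 3.90% were at least 4-fold apart between the CA1 lesion array and CA1 controls 1 to 3, and 5.88%, 5.65% and 6.25% between pairs of CA1 controls. In CA3 the shares were 6.14%, 4.62% and 3.66% for the lesion array and 3.95%, 4.34% and 2.98% for pairs of controls. In both fields the smallest distance of the lesion array was to control 3. In CA1 no lesion pair exceeded the most distant pair of controls, whereas the CA3 lesion array stood farther from CA3 controls 1 and 2 than any pair of CA3 controls did from each other.

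**Figure D5:**
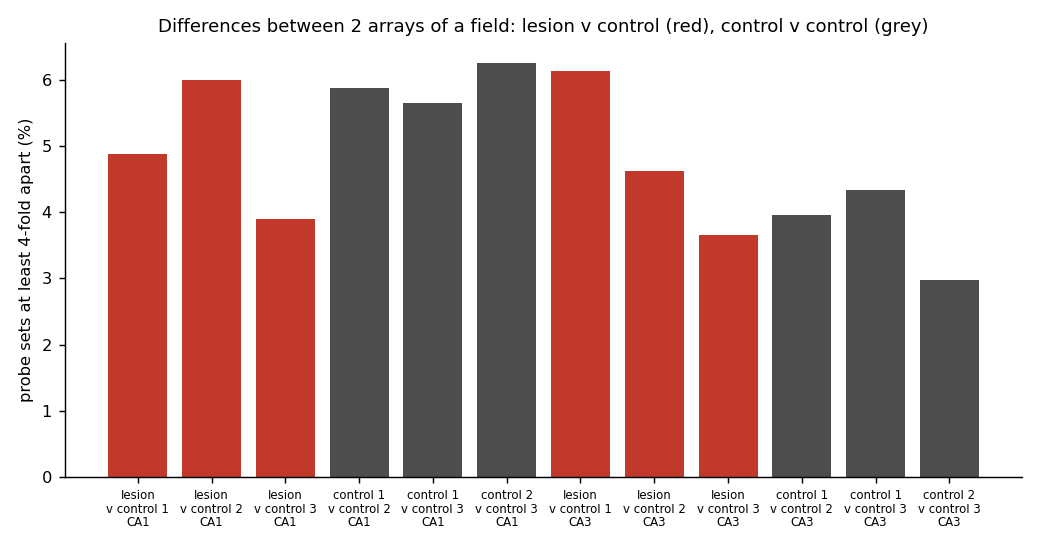
Percentage of the brighter 60% of probe sets that differ at least 4-fold between 2 arrays of a field (y axis, from 0) for each pair (x axis), lesion against control in red and control against control in grey. In CA1 the lesion pairs, 3.90% to 5.99%, stay under the tallest of the control pairs, 5.65% to 6.25%, and in CA3 they run from 3.66% to 6.14% against 2.98% to 4.34%.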

How the data were processed

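The values are the authors' deposited intensity per probe set, from 8 arrays of pooled RNA. On each array their trimmed mean was about 2501, so they had been scaled. What software made the deposited intensities is not given in the sources used here. Control probe sets (57) were left out of 31099, and log2(intensity + 16) of the deposited values was fitted with limma 3.58.1 in R 4.3.3 (empirical Bayes with an intensity trend, Benjamini-Hochberg adjustment, 31042 probe sets), with field and lesion as terms. Each field and the difference between fields came from a fit with 1 coefficient per group. Scripts were tested on simulated data. The number of arrays limits the precision, and the labels do not say that replicates came from separate animals or cultures.

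Symbols came from the platform annotation, set against the RefSeq table (GRCr8): 20826 probe sets had 1 symbol, 436 several and 9780 none, and 20758 matched. A gene's brightest probe set stood for it in the lists. Members and gene lists were chosen with earlier results of these data known. Named genes were up to 12 per direction by size of the mean effect among brighter probe sets with 1 symbol and both lesion arrays beyond all own controls, 5 per direction by p for the difference between fields, up to 4 per list by p, the 5 most like Penk, and Aif1, C1qa and Penk. The rule's 8 per direction for the replicate block are not reported. Other genes were named after their values were seen. Alternatives were quantile normalization, pseudocounts of 1 and 64, filters at the 40th and 60th percentile of intensity, arrays left out, no trend, probe set classes left out and a replicate block.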

Additional observations from a re-analysis of the deposited data

How the results depend on the processing

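The count of 0 calls for the mean lesion effect, with 1837 at an unadjusted p under 0.05, became 489 without control 3 of both fields, 1 without control 1 of both and 955 with the replicate number as a block (611 higher, 344 lower). Both lesion arrays carry number 1, so the block fit compares each with control 1 of its field only. Controls 2 and 3 add only to its estimate of the spread. Control 1 was the control farthest from the lesion arrays on the microglia and myelin lists. Leaving out single arrays gave 0 to 2 calls for the mean effect and 0 to 1 in CA3. In CA3 there were 5 calls under quantile normalization and 5 with a pseudocount of 1. With the replicate block CA1 had 286 calls, CA3 323 and the difference between fields 0, and the block without an intensity trend gave 0 for the mean effect. Same-numbered controls of the 2 fields deviated together with correlations of 0.0273, 0.0182 and 0.116 over all probe sets, and control 2 of CA1 matched number 1 best. On the glial lists same-numbered controls stood alike. Control 3 was the highest control for 23 of 26 microglia genes in CA1 and 24 in CA3. Control 1 was the lowest for 18 of 21 myelin genes in CA1 and 19 in CA3. Whether same-numbered arrays share a preparation is not in the labels and was not tested, so the main fit does not pair them. Probe sets with both lesion arrays above all controls numbered 1486 with a filter at the 40th percentile and 1005 at the 60th, where 1113 lay below. Without a filter and with all controls, 2251 lay above and 2114 below. Without control 1 of both fields 3671 lay above and 3422 below, and without control 3 of both 4474 and 4477. With single controls left out the counts were 2608 to 3308 and 2555 to 3081, fewer controls having to be passed. Of 3245 comparisons over 169 gene results, 3091 kept their direction and side of the threshold, 147 passed it newly and 7 reversed. With single arrays left out, the second Aif1 probe set ranged from -0.48 to 0.76 (-0.041 without CA1 control 1), Itga5 from -3.81 to 0.052, Ttr from -1.93 to 0.19 and Pou3f1 from -0.44 to 1.21, each turning its sign without 1 lesion array, and Pou3f1 stood at -0.041 with the block, with or without the trend. The cause was not tested. Of 560 comparisons of list medians, 33 moved. Dim probe sets rest on low signal, where 1 array can decide a fold.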
